A study of Sus scrofa with 80 samples.

Results

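The genes described here are the claudins, connexins and keratins on a custom minipig array, with occludin (OCLN), the tight junction scaffold genes (TJP) and the uroplakins. They were taken by gene name, using no measured value, and 60 of the 23736 genes on the array matched: 18 claudins, 13 connexins, 22 keratins, 3 of OCLN and the TJP group, and 4 uroplakins. Another 22 genes of these families were listed on the array by RefSeq accession only; RefSeq names them, among them KRT8, CLDN2, CLDN4, CLDN7 and UPK3A, and they were measured in the same way but not counted among the 60. The tissues came from Göttingen minipigs, a small laboratory pig, sold by the breeder Ellegaard as fresh frozen material from untreated animals. Kidney and liver, the marrow and spleen, and the cortex, hypothalamus and cerebellum of the brain had 1 sample of each sex at the ages of 1 week, 4 weeks, 2 months and then 4 months, and 1 male sample at 2 years. Testis was sampled once at each of the 5 ages and ovary once at each of the 4 ages to 4 months. The 2-year kidney was hybridized on 8 arrays, which count as 1 sample, and 1 further array held the renal pelvis of a 2-year male. The labels do not say which tissues came from the same animal, and they say that the 2-year male had been kept for part of its life at another site on another feed.

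Claudins are membrane proteins that seal the space between neighbouring cells at the tight junction, and some of them form pores there that let chosen ions pass. OCLN sits in the same junction, and the TJP proteins fasten it to the cytoskeleton inside the cell. Connexins build gap junctions, channels that join the interiors of adjacent cells. Keratins are the intermediate filaments of epithelial cells and assemble as pairs of an acidic and a basic type, KRT18 with KRT8 being the pair of simple epithelia such as hepatocytes and renal tubules. Uroplakins coat the surface of the urothelium, which lines the renal pelvis and bladder.

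The 80 arrays gave median gene spot intensities of 27 to 89, against medians of 17 to 25 for the negative control spots, and 48.8% to 65.8% of the gene spots of an array were well above background by the scanner's own flag. The values below are log2 signals after background correction and quantile normalization, each gene's own scale, so that a difference of 1 is a doubling; levels of different genes are not compared. A value that is not well above background is only an upper bound. All 2-year arrays lay on 2 slides that held no younger sample, so age and slide cannot be told apart for them. They are given as values beside the 64 samples to 4 months. Only the comparison of testis by age and some alternative fits tested them. The summed markers of kidney tubule, hepatocytes, oligodendrocytes and neurons were highest in kidney, liver, hypothalamus and cortex, and those of erythroid cells were high in marrow and spleen; SERPINA1 was not well above background in liver, STMN2 in brain, or the erythroid gene SLC4A1 in the 2-year marrow. In bulk tissue, fewer cells of a type and less RNA per cell cannot be told apart.

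Of the 60 genes, 53 were well above background in at least 1 of the 64 samples to 4 months and 16 in all 64. The 7 that were in none included CLDN11, CLDN24, GJA10, KRT20, KRT28 and KRT73. Liver had the highest mean for 21 of the 60 genes, bone marrow for 8, kidney for 7, spleen for 7, cortex for 5, hypothalamus for 5, testis for 3, ovary for 2 and cerebellum for 2. Many of these orders rest on small gaps. The means of 17 genes spanned more than 2 log2 units over the 9 tissues, and most of those, with some of the genes listed by accession, carry the tissue pattern described below.

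**Figure D1:**
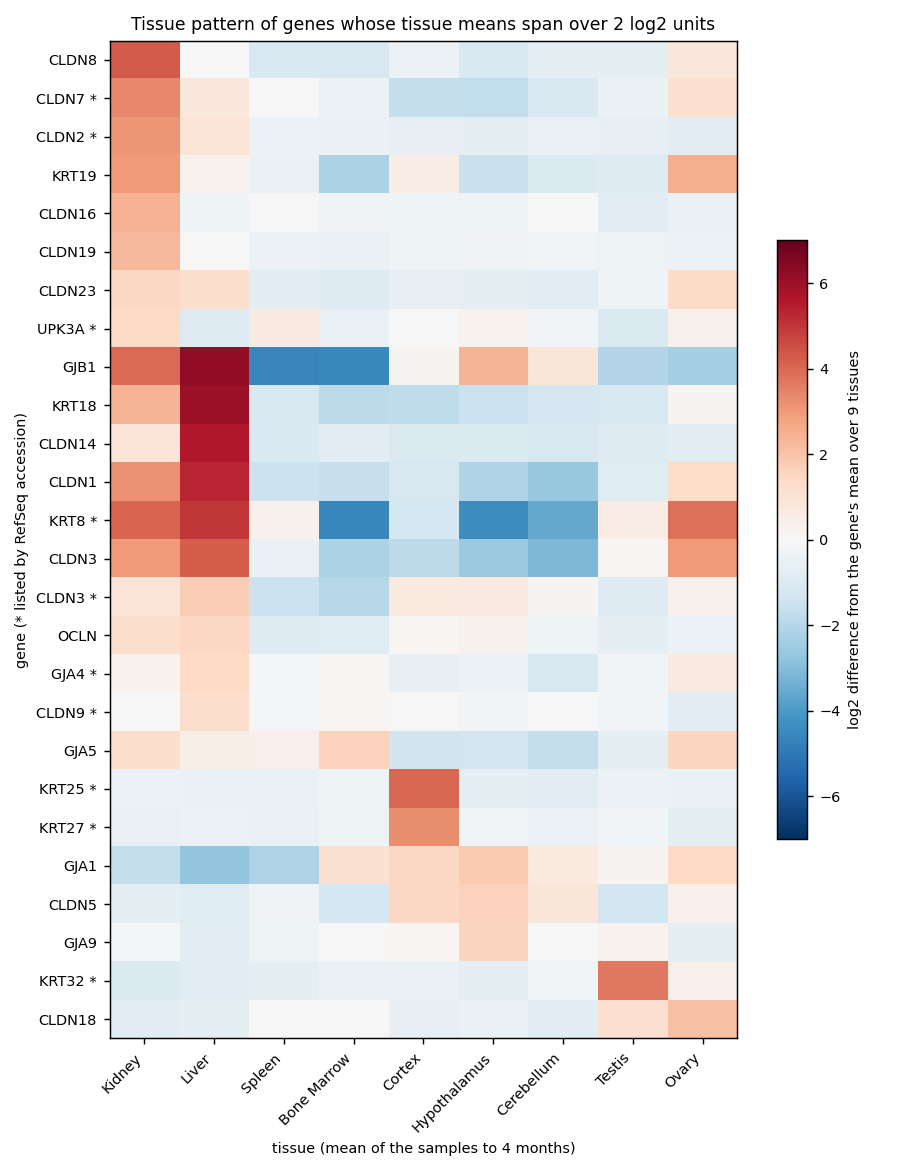
Tissue means of 16 genes, and 10 listed by accession (marked with an asterisk), that are named in the text and whose means spanned more than 2 log2 units; each cell is the difference in log2 signal from that gene's mean over the 9 tissues, in samples to 4 months, with rows grouped by the tissue of the highest mean. Claudins and simple keratins stand high in the liver and kidney columns, CLDN5 in the 3 brain columns and KRT25 and KRT27 in the cortex column.

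Each of the 7 tissues with both sexes was set against the mean of the other 6 in 1 limma fit of 56 samples, and a gene was called at an adjusted p under 0.05 and at least a 2-fold difference. Because liver and kidney are among the other 6, a lower value in spleen, marrow or brain is partly a statement about those organs. In kidney, 13 of the 60 genes were called (21.7%), 11 higher and 2 lower, beside 17.9% of all 23722 genes tested, of which 8.89% were higher and 8.96% lower. The median difference of the 60 was 0.02, beside −0.07 for all genes. The families differed: claudins had a median of 0.39, with 6 of 18 higher and none lower, connexins 2 higher and 2 lower of 13, keratins 2 of 22 higher, and no uroplakin was called. In liver 11 genes were called (18.3%, beside 21.4% of all genes; 9.85% of all genes were higher), 7 higher and 4 lower, with 4 claudins among the 7. Among the lower 4 were GJA1 at −2.96, CLDN5 at −1.15 and GJA9, which was well above background in no liver and at least 1.31-fold lower. The calls of CLDN5 and GJA9 were lost with median scaling, and that of GJA9 also with the scanner's processed signal, the offset of 50 described below, the authors' value table, slide as a block, and in 4 of 8 fits that left out 1 age and sex. With median scaling in place of quantile normalization the liver split was 8 higher and 2 lower, and with the scanner's processed signal 10 higher and 3 lower.

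The kidney claudins were led by CLDN8, a barrier claudin of the distal nephron and collecting duct. CLDN8 ranged from 8.35 to 9.28 in the 8 kidneys, with a median of 9.06, and from 3.34 to 5.04 in the 48 samples of the other 6 tissues. All kidney values lay far above all others, a difference of 5.01 ± 0.11 (SE, as for every difference below; 32.2-fold, adjusted p = 1.7e-42). CLDN16 and CLDN19, which together form the cation pore of the thick ascending limb, had the same kind of gap. CLDN16 was 6.29 at its lowest, 6.94 at the median and 7.24 at its highest in kidney, against 3.68 to 4.71 elsewhere. CLDN19 was 5.52, 5.84 and 6.54, against 3.01 to 4.05. The probes of CLDN16 followed each other only partly (lowest correlation 0.47), those of CLDN19 more closely (0.92). No kidney overlapped any other sample in either gene, and the differences were 2.63 ± 0.10 for CLDN16 (6.18-fold, adjusted p = 1.6e-29) and 2.52 ± 0.09 for CLDN19 (adjusted p = 6.9e-32). CLDN19 was never well above background in 5 of the 6 other tissues, so its difference is given as at least 5.65-fold, with those tissues set no lower than the dimmest signal that was well above background; "at least" has this meaning throughout. With an offset of 50 added to the signals before the logarithm these became 1.00 and 0.90, just under the 2-fold limit. In RefSeq's pig annotation CLDN16 lies next to CLDN1, with 0 protein-coding genes between them, but CLDN1 was highest in liver.

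Of the claudins listed by accession, CLDN7, a claudin of the basolateral membrane in many epithelia, was 8.50 to 9.34 in kidney with a median of 8.96, and 16.6-fold above the other tissues with no overlap. CLDN2, the cation pore of the proximal tubule, was 4.93 to 6.97 with a median of 5.75 and was at least 7.10-fold higher, again without overlap. CLDN10, which has one form in the thick ascending limb and another in the proximal tubule, had its highest mean in kidney, 5.47 ± 0.28 (SD, n = 8), but differed from the other tissues by 0.91, under the limit. Its probes varied independently of each other over the arrays (lowest correlation −0.05), so this value mixes unlike signals. CLDN23 was higher in both epithelial organs, by at least 3.59-fold in kidney and 2.98-fold in liver, and neither difference reached 2-fold with the offset of 50. In kidney CLDN23 was 4.98 to 5.46 in the 6 samples to 2 months, 6.05 and 6.33 at 4 months and 7.21 at 2 years.

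In liver, CLDN14, CLDN1 and CLDN3 stood above every other sample of the 7 tissues. CLDN14, a claudin of hepatocyte and inner ear junctions, was 8.20 at its lowest, 9.11 at the median and 10.12 at its highest in liver, and at most 5.13 in the other 48 samples. It was not well above background in any sample of spleen, marrow, brain or testis to 4 months, and was at least 56.5-fold higher in liver (adjusted p = 7.2e-42). CLDN1, the claudin of bile canaliculi and of skin barrier, was 10.06, 10.15 and 10.49 in liver and 7.37, 8.02 and 8.73 in kidney. CLDN1 was at least 71.4-fold higher in liver (adjusted p = 9.4e-36) and at least 12.7-fold higher in kidney than in each one's other 6 tissues. CLDN3, a barrier claudin of many glands, was 10.68, 11.07 and 11.34 in liver and 9.41, 9.82 and 10.21 in kidney, with differences of 5.43 ± 0.31 (43.1-fold) and 3.97 ± 0.31 (15.7-fold).

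CLDN3 was represented on the array by a further entry under an accession, and the entries shared their pattern only in part. The entry named CLDN3 and the accession entry both had their highest mean in liver (11.06 and 7.55) and the next in kidney (9.81 and 6.70). They differed in brain. The entry named CLDN3 was lower in brain than in the other organs by 3.65 on the log2 scale, while the accession entry was higher there by 0.73, under the limit. The accession entry is of the class whose probes the array's names mark as cross-hybridizing, as are CLDN5, CLDN10, GJA1 and KRT6B among the 60. CLDN7 and UPK3A, listed by accession, are of that class too. The accession entry of CLDN3, and KRT25, KRT27 and KRT32 below, were chosen for mention after their values were seen.

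OCLN was dim throughout. It was 5.01 ± 0.58 in liver and 4.80 ± 0.52 in kidney (SD, n = 8 each), well above background in 6 and 7 of the 8 samples, and at least 2.14-fold higher in kidney than in the other 6 tissues. TJP3 was 4.04 in liver and 3.93 in kidney and was called in no tissue. Among 19 other tight and adherens junction genes on the array, 10 were higher in kidney and none lower, EPCAM by 6.59, MARVELD3 by 4.04, INADL by 3.86 and PARD6B by 3.39. In liver 7 of the 19 were higher, CDH1 (E-cadherin) by 4.66. Of 16 epithelial transcription factors 9 were higher in kidney, and of 13 desmosome and envelope genes 6 were, DSG2 by 2.10 and PPL by 2.03. Of all genes, 8.89% were higher in kidney and 9.85% in liver. These lists were chosen with earlier results of these arrays known.

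**Figure D2:**
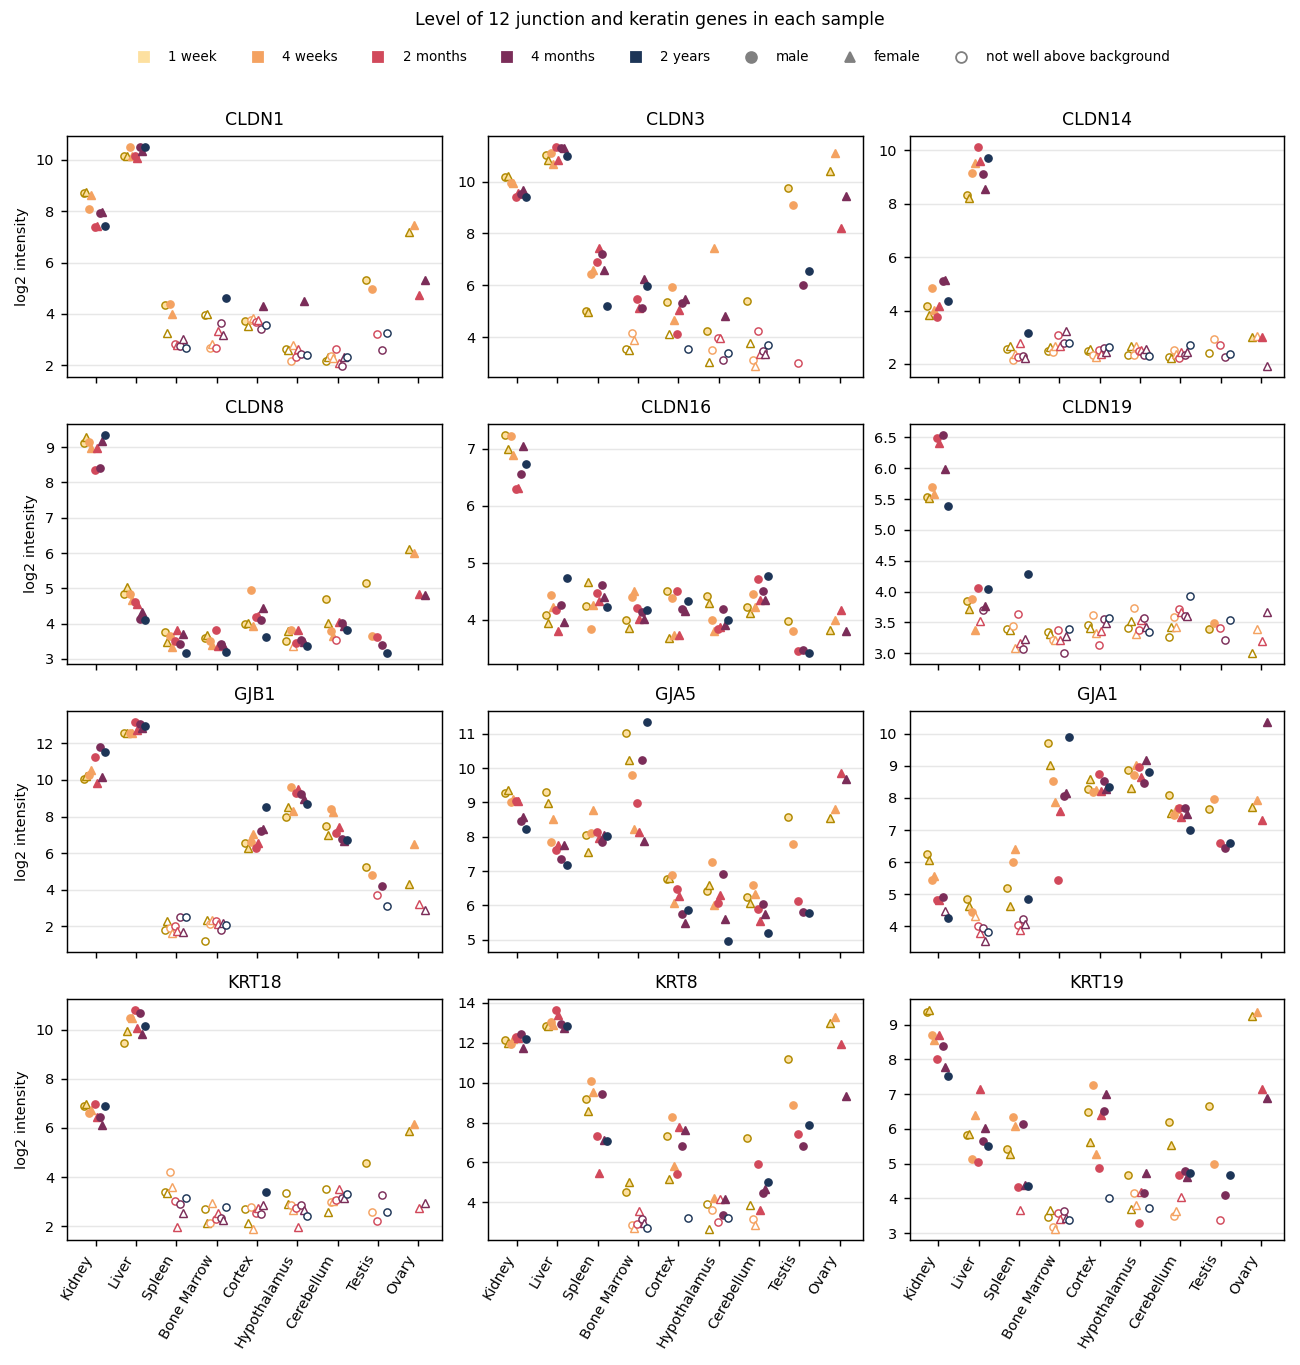
Log2 signal of 12 genes in every sample, 1 panel a gene with its own vertical axis; the horizontal axis is tissue, color is age, circles are males and triangles females, and open symbols are not well above background. Liver points lie above those of every other tissue for CLDN1, CLDN14, GJB1 and KRT18, kidney points for CLDN8, CLDN16 and CLDN19.

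Set directly against liver, kidney had 5 genes higher and 6 lower (18.3% of the 60, beside 17.3% of all genes, 9.32% higher and 7.98% lower). Higher in kidney were CLDN8 (19.7-fold), KRT19 (6.65-fold), CLDN16 (6.52-fold), CLDN19 (4.73-fold) and GJA1 (2.14-fold). Lower in kidney were CLDN14 (25.8-fold), KRT18 (11.9-fold), GJB1 (4.72-fold), CLDN1 (4.40-fold), UPK3BL (2.46-fold) and CLDN3 (2.38-fold). For 10 of the 11 the 8 kidneys and 8 livers did not overlap; the exception was GJA1. For those 10 genes the direction is therefore the same on every slide, so a count by slide could vary only through GJA1. On 6 of the 7 slides that held both organs up to 4 months all 11 differences had the same direction, and on the remaining slide 10 of 11 did. The CLDN3 difference of −1.25 had an adjusted p of 0.0093, which became 0.052 both with the scanner's processed signal and with the authors' value table, and GJA1 lost its call with the offset of 50 (adjusted p = 0.082). CLDN19 and UPK3BL also fell under 2-fold with that offset. The probes of UPK3BL followed each other little (lowest correlation 0.32).

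KRT18 and KRT8, acidic and basic partners whose genes are neighbours in the pig annotation, followed the same order of tissues at the top. KRT18 was 9.48 at its lowest, 10.27 at the median and 10.82 at its highest in liver, and 6.11, 6.68 and 6.99 in kidney. All livers lay above all kidneys, and KRT18 was not well above background in any sample of spleen, marrow or brain to 4 months. It was higher in liver by at least 89.7-fold (adjusted p = 4.1e-41) and in kidney by at least 4.99-fold, and the fitted kidney difference of 2.63 became 0.67 with the offset of 50. KRT8 was 12.75, 12.88 and 13.63 in liver and 11.75, 12.14 and 12.45 in kidney, 93.5-fold and 44.6-fold above the other tissues of each. KRT19, the acidic keratin of ducts and of collecting duct, went the other way. It was 7.78, 8.63 and 9.42 in kidney, above all 48 other samples, while the liver mean was 5.88 ± 0.67 (SD, n = 8). The 6 cholangiocyte markers, EPCAM among them, were well above background in both organs and summed to 4610 to 6235 in linear signal in kidney and to 558 to 2255 in liver; their part in the KRT19 difference was not tested.

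Most other keratins were dim and flat. KRT10, the acidic keratin of differentiating epidermis, was well above background in every sample to 4 months, with tissue means from 9.19 to 10.33 and no call in any of the 7 tissues. KRT6A was highest in spleen, 4.73 ± 0.45, and KRT6B in marrow, 7.43 ± 0.54 (SD, n = 8). These near-identical genes can share signal. Probes of KRT6B did not follow each other (lowest correlation −0.03), and those of KRT6A hardly did (0.15). KRT13, a keratin of stratified mucosa, was 1.06 higher in marrow, with a mean of 4.79 ± 0.50. It lost its call in 2 of 8 fits that each left out 1 age and sex from all tissues. KRT23 was at least 2.28-fold higher in spleen, at 4.48 ± 0.51 and well above background in 6 of 8. It was at least 1.93-fold higher in cerebellum, where the call was lost in 3 of 8 such fits. Neither KRT13 nor KRT23 kept a 2-fold difference with the offset of 50. Of 12 intermediate filament genes other than keratins, 8 were lower in liver and 4 in kidney, with INA at −5.03 and GFAP at −4.40 in kidney. Of all 23722 genes, 2738 were lower in liver and 2125 in kidney. Brain regions are among the tissues that liver and kidney were set against, so these lower values are partly a statement about brain.

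Cortex held a keratin pattern of its own among the genes listed by accession. KRT25 and KRT27 are acidic keratins of the inner root sheath of hair, and lie in the pig annotation in a run of KRT28, KRT27, KRT26 and KRT25 with 0 protein-coding genes between. KRT27 was 8.91 at its lowest, 9.33 at the median and 9.82 at its highest in the 8 cortices, and 5.32 to 6.31 in the other 48 samples. KRT25 was 6.43, 7.24 and 8.19, against 2.01 to 3.49. No cortex overlapped any other sample, and the differences were 3.67 ± 0.08 for KRT27 (12.7-fold, adjusted p = 1.1e-41) and at least 19.0-fold for KRT25 (adjusted p = 1.7e-36). At 2 years the cortex gave 9.31 for KRT27 and 7.78 for KRT25, within the younger range of each. Their neighbours did not share the level: KRT26 was 3.87 ± 0.42, well above background in 2 of 8 cortices, and KRT28 in no sample.

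The connexins split between epithelia and brain. GJB1, connexin 32 of hepatocytes, renal tubules and myelinating cells, was 12.54 at its lowest, 12.65 at the median and 13.15 at its highest in liver, and 9.82, 10.25 and 11.79 in kidney. It was 8.00, 9.09 and 9.60 in hypothalamus and had means of 7.39 ± 0.64 in cerebellum and 6.73 ± 0.41 in cortex (SD, n = 8). In no sample of spleen or marrow was it well above background, so that spleen was at least 37.3-fold and marrow at least 33.4-fold below the mean of its other 6 tissues. Liver was at least 73.0-fold and kidney at least 12.0-fold higher. Hypothalamus was at least 3.29-fold higher than its other 6 tissues, and its fitted difference of 2.02 became 0.75 with the offset of 50. Oligodendrocytes are among the cells that carry GJB1. The summed linear signal of their markers was 119668 to 130508 in hypothalamus, 74441 to 99355 in cortex and 64340 to 100112 in cerebellum, and at most 2169 in the other organs. Of the 6 markers, MOBP, CNP and OLIG2 were not well above background in cortex and cerebellum, and CNP and OLIG2 in hypothalamus; their part in the GJB1 order of the brain regions was not tested. GJC3, a glial connexin, was dim everywhere, at most 3.12 as a tissue mean.

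GJA1, connexin 43 of astrocytes, fibroblasts and many other cells, was highest in hypothalamus and cortex, with means of 8.77 ± 0.29 and 8.38 ± 0.20, whose ranges overlapped, and lowest in liver at 4.2. It was 6.37-fold higher in brain than in the other organs. All 5 astrocyte markers were well above background in each brain region and summed to 10875 to 30602 in hypothalamus, 10598 to 16340 in cerebellum and 7098 to 14291 in cortex. GJA5, connexin 40 of arterial endothelium and the cardiac conduction system, went the other way. It was 5.47 to 7.27 in the 24 brain samples and 7.35 to 11.0 in the 32 others, a difference of −2.37 ± 0.16 (5.17-fold lower, adjusted p = 2.0e-19) with no overlap. CLDN5, the claudin of the blood-brain barrier, was 12.86 at its lowest, 13.12 at the median and 13.85 at its highest in hypothalamus, 13.04 ± 0.21 in cortex and 12.48 ± 0.25 in cerebellum, and 4.12-fold higher in brain (2.04 ± 0.13, adjusted p = 1.2e-21). The endothelial markers summed to less in brain than in the other organs: 4 of the 5, all but TEK, were well above background in cortex and hypothalamus and all 5 in cerebellum, and their sum was 209 to 367 in brain, 649 to 1240 in kidney, 669 to 1332 in liver, 499 to 1215 in spleen and 525 to 760 in marrow.

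In the 3 brain regions together, 10 genes were called against the other organs (16.7%, beside 26.9% of all genes, 13.4% higher and 13.6% lower), 4 higher and 6 lower. Among the higher were GJA1 and CLDN5. Lower were CLDN3 (12.6-fold), CLDN1 (10.1-fold), KRT18 (at least 5.51-fold), GJA5, CLDN14 (at least 3.10-fold) and CLDN8. KRT8, listed by accession, was also lower, by 4.26 on the log2 scale, and CLDN7 by 2.41. By region, hypothalamus had 12 genes called (20.0%, beside 17.7% of all genes, 9.84% higher and 7.85% lower), with 5 higher, among them GJA1, GJB1, GJA9 and CLDN5. Cortex had 8 (13.3%, beside 20.0%, 10.6% higher and 9.44% lower) with GJA1 and CLDN5 among the 3 higher, and cerebellum 8 (13.3%, beside 19.9%, 9.76% higher and 10.1% lower) with KRT23 and GJA1 among the 3 higher. With the offset of 50 hypothalamus had 6 genes called and cerebellum 4. GJA9 in hypothalamus was 3.97 and not well above background in the 1-week male, 4.36 in the 1-week female, 4.89 and 5.00 at 4 weeks, and 5.51 to 5.95 at 2 and 4 months.

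In spleen, 9 genes were called (15.0%, beside 18.9% of all genes, 8.82% higher and 10.1% lower), KRT23 higher and 8 lower, among them GJA1 by 2.24, CLDN1 by 1.66 and OCLN by at least 1.86-fold. The split became 3 higher and 8 lower with median scaling and 3 and 9 with the scanner's processed signal, and 4 genes were called with the offset of 50. KRT8, in contrast to KRT18, was well above background in all 8 spleens and higher than in the other 6 tissues by 1.09 (adjusted p = 0.01), but it varied widely. KRT8 was 9.18 and 8.57 in the 1-week male and female, 10.08 and 9.55 at 4 weeks, 7.35 and 5.45 at 2 months, 9.45 and 7.12 at 4 months, and 7.07 in the 2-year male. KRT19 ran from 6.34 in the spleen with the highest KRT8 to 3.66, not well above background, in the spleen with the lowest. MSLN, a marker of mesothelium, the cell layer that covers abdominal organs, was 5.65 and 3.01 in those same spleens, and BNC1 4.55 and 2.70. The lower value of each was not well above background, and MSLN was highest, at 5.75, in the 4-week female. MSLN and BNC1 were picked from the 6 markers of mesothelium. The others are not given spleen by spleen, so the values above do not stand for the list. Of the 6 mesothelial markers all but ITLN1 were well above background in at least 1 spleen, MSLN in 7 of 8 and BNC1 in 2 of 8. The sum of all 6 was 905 to 1560 in linear signal. The part of mesothelium in the keratin values was not tested.

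Cortex samples also differed among themselves in KRT8. It was 7.35 and 5.18 in the 1-week male and female, 8.28 and 5.83 at 4 weeks, 5.42 and 7.76 at 2 months, 6.84 and 7.63 at 4 months, and 3.21, not well above background, at 2 years. KRT19 was 7.28 in the 4-week male and 4.86 in the 2-month male, the samples with its highest and lowest value, and CLDN3 was 5.92 and 4.10 in them. KRT18 was well above background in no cortex to 4 months. MSLN was 3.34 to 3.76 and well above background in 1 of the 8. The fibroblast and meningeal markers, all 5 well above background in cortex, summed to 5679 to 14703, those of choroid plexus to 103 to 125 with KCNJ13 and OTX2 not well above background, and those of mesothelium to 489 to 786 with BNC1 and ITLN1 not well above background; their part in the spread of KRT8 was not tested.

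**Figure D3:**
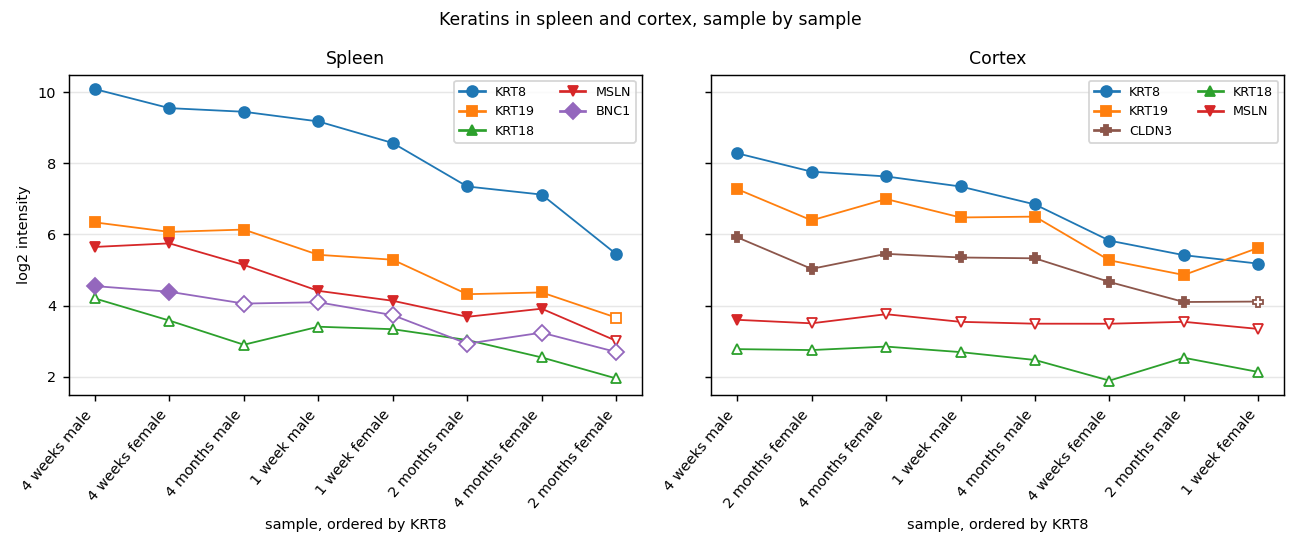
Log2 signal of simple keratins, CLDN3 (cortex only) and the mesothelial genes MSLN and BNC1 (BNC1 in spleen only) in each spleen and each cortex. The samples of a tissue are ordered by KRT8, and open symbols are not well above background. In spleen KRT19 and BNC1 are highest where KRT8 is 10.08 and, with MSLN, lowest where it is 5.45, while in cortex MSLN lies between 3.34 and 3.76 up to 4 months and is mostly not well above background.

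Bone marrow had 14 genes called (23.3%, beside 22.5% of all genes, 10.4% higher and 12.1% lower), 3 higher and 11 lower. GJA5 was higher by 1.99, GJA1 by 1.53 and KRT13 by 1.06. The 11 lower included 6 claudins, with CLDN3 at −2.08, CLDN1 at least 3.23-fold and CLDN5 at −1.60, and the keratins KRT19 (at least 4.93-fold) and KRT18 (at least 3.25-fold). KRT8 was well above background in 2 of 8 marrows and lower by 4.59. With the offset of 50, 8 genes were called, and with median scaling 3 higher and 8 lower. GJA5 was 11.02 and 10.24 in the 1-week male and female, 9.80 and 8.24 at 4 weeks, 8.98 and 8.14 at 2 months, 10.24 and 7.88 at 4 months, and 11.34 at 2 years. The 3 highest to 4 months were the marrows with the most muscle RNA: CKM, the muscle creatine kinase, was 14.98 and 15.28 at 1 week and 11.27 in the 4-month male, and 3.37 to 7.44 in the other 5. All 5 muscle markers were well above background in at least 1 marrow and summed to 1028 to 50348, and 3 of 5 fibroblast markers, all but LUM and SLC6A13, summed to 6405 to 66379. Without those 3 samples, a step added after seeing the data, GJA5 was higher by 1.28, GJA1 by 1.00 and KRT13 by 1.34, all still called. Both 1-week marrows were among the 3, and CKM still ran from 3.37 to 7.44 in the 5 kept. This step therefore cannot tell muscle RNA from age, and fibroblast signal was not used to choose the samples. The part of muscle RNA in the marrow calls was not tested.

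Age was tested within each tissue, 4 samples at 2 and 4 months against 4 at 1 and 4 weeks, at an adjusted p under 0.05. In kidney 6 of the 60 genes were called (10%, beside 8.42% of all genes, 3.70% higher and 4.72% lower), CLDN19 and CLDN25 rising and GJA1, CLDN1, KRT10 and CLDN3 falling. GJA1 was 6.26 and 6.07 in the kidneys of 1 week, 5.44 and 5.57 in those of 4 weeks, 4.82 in both of 2 months, 4.92 and 4.47 at 4 months and 4.26 at 2 years, and fell by 1.08 (SE 0.20, adjusted p = 0.017). CLDN19 was 5.53 and 5.52 at 1 week, 5.70 and 5.59 at 4 weeks, 6.49 and 6.42 at 2 months and 6.54 and 5.98 at 4 months, and rose by 0.77 (SE 0.15, adjusted p = 0.018). The younger and older kidneys did not overlap in either gene, though at 2 years CLDN19 was 5.38, below all the younger ones.

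CLDN1 fell by 0.87 in kidney (adjusted p = 0.033), from 8.08 to 8.73 in the younger samples to 7.37 to 7.97 in the older. KRT10 fell by 0.87 as well (adjusted p = 0.042) and CLDN3 by 0.53 (adjusted p = 0.037), while CLDN25 rose by 0.66 (adjusted p = 0.037). At 2 years KRT10 was back at 10.54, within the younger range of 9.84 to 10.7. These calls were fragile. Leaving out 1 kidney at a time left between 0 and 11 genes called, and of those 8 fits CLDN25 lost its call in 7, CLDN1, KRT10 and CLDN3 in 6, CLDN19 in 4 and GJA1 in 1, that without the 1-week female. In a common fit of the 7 tissues with slide as a block GJA1 had an adjusted p of 0.119 (−0.95) and CLDN1 of 0.061, and CLDN19 alone of the 6 kept its call, which it lost when the 2-year male was added (adjusted p = 0.131). Of the genes listed by accession GJA4, connexin 37 of endothelium, fell by 1.05 and CLDN9 rose by 0.87. The fibroblast list had 2 of 5 genes lower in the older kidneys, beside 4.72% of all genes. Its sum over all kidneys was 1107 to 10864 with LUM not well above background, and its part in the fall of GJA1 was not tested.

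In the other tissues few or none of the 60 genes were called with age. With 4 samples against 4, a gene that was not called may still differ. Spleen had 2 (beside 3.11% of all genes): CLDN1 fell by at least 1.80-fold (adjusted p = 0.045), being well above background in 3 of the 4 younger and none of the older spleens, and KRT6A rose by 0.78 (adjusted p = 0.033). Marrow had 1 (beside 0.733%): CLDN3 was not well above background in the 4 younger samples and was 5.46, 5.11, 5.13 and 6.24 in the older, at least 3.29-fold higher (adjusted p = 0.026). Without the 3 marrows with muscle genes its difference was 1.58 with an adjusted p of 0.304. Each of these calls was lost when certain single samples were left out, CLDN1 in 7 of 8, KRT6A in 6 of 8 and CLDN3 in 6 of 8 fits. Liver (1.81% of all genes called), cortex (1.71%), cerebellum (2.28%) and hypothalamus (0%) had 0 of the 60 called by limma, with 9, 13, 10 and 3 genes at an unadjusted p under 0.05. The difference in age effect between kidney and liver, tested as an interaction, was called for 0 of the 60 (beside 0.358%; 10 at an unadjusted p under 0.05). Between males and females, paired by tissue and age, 0 of the 60 were called (beside 0.253%; 5 at an unadjusted p under 0.05). The percentages of all genes are for the adjusted p. The share of all genes at an unadjusted p under 0.05 is not given, so the unadjusted counts cannot be read as many or few.

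The gonads had 1 sample an age. Testis differed from ovary over 4 matched ages in 1 of the 60 genes (beside 3.90% of all genes), UPK1B, which was 3.88, 4.26, 3.63 and 3.61 in ovary, the last not well above background, and in no testis well above background, at least 1.95-fold lower in testis (adjusted p = 0.043); 14 genes had an unadjusted p under 0.05. The share of all genes at that unadjusted limit is not given here either. UPK1B lost its call when any of 6 of the 8 samples was left out. Without the 1-week testis 10 genes were called. KRT32, a hair keratin listed by accession, was 10.1-fold higher in testis (adjusted p = 0.045). Within ovary simple keratins varied with age. KRT8 was 12.99 and 13.27 in the ovaries of 1 and 4 weeks, and 11.93 and 9.32 in those of 2 and 4 months. KRT18 was 5.88 and 6.14 and then 2.75 and 2.93, not well above background, and KRT19 9.23, 9.37, 7.15 and 6.87. CLDN18, a claudin known from stomach and lung, had its highest mean in ovary, 5.80 ± 0.58 (SD, n = 4), and its lowest ovary value, 5.11, at 4 weeks. GJA1, which joins granulosa cells, was 7.33 to 7.94 to 2 months and 10.35 at 4 months. With 1 ovary an age these differences have no replicate check. The mesothelial markers, all 6 well above background in ovary, summed there to 1851 to 5805.

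Testis at 2 months, 4 months and 2 years was set against testis at 1 and 4 weeks, 3 samples against 2. The 2-year testis lay on a slide with no younger sample, so age and slide cannot be told apart for it here either. The protamine gene PRM1, a marker of spermatids, was 3.12 and 2.82 in the younger testes and 15.9 to 16 in the older. Of the 60 genes 15 were called (25.0%, beside 43.8% of all genes), 2 higher and 13 lower. The median difference of the 60 was −0.27 and that of all genes −0.21, and 16.3% of all genes were called higher and 27.4% lower.

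CLDN3 was 9.76 at 1 week and 9.09 at 4 weeks, then 2.99 (not well above background) at 2 months, 6.00 at 4 months and 6.54 at 2 years, 19.0-fold lower in the older testes (SE 1.02 on the log2 scale, adjusted p = 0.017). Its adjusted p was 0.074 with the scanner's processed signal, and 0.075 without the 1-week testis. GJA5 was 8.59 and 7.80, then 6.12, 5.81 and 5.79, and lower by 2.29 (adjusted p = 0.0017). CLDN5 was 12.09 and 10.99, then 9.25, 8.84 and 9.79, and GJA1 7.65 and 7.96, then 6.59, 6.43 and 6.60. In none of these genes did an older testis reach the younger level. Also lower were CLDN1 (at least 4.30-fold), CLDN6 (at least 3.54-fold), KRT19 by 1.77 and GJB1 by 1.35, and among the genes listed by accession GJA4 by 2.79 and KRT8 by 2.63. In 5 fits that each left out 1 testis CLDN6 lost its call in 4, KRT19 in 3 and GJB1 in 2. KRT19 had an adjusted p of 0.085 with the scanner's processed signal and with the authors' value table, and with the offset of 50 neither KRT19 (0.135) nor CLDN6 (0.126) was called.

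KRT4, a basic keratin of stratified mucosa, was 6.46 and 6.15 in the younger testes and 7.79, 8.49 and 8.07 in the older, 3.52-fold higher (SE 0.26, adjusted p = 0.0027). Its probes hardly followed each other (lowest correlation 0.05). KRT34 was 6.21, 4.48 and 6.23 in the older and not well above background in the younger testes, at least 3.80-fold higher (adjusted p = 0.034). KRT34 lost its call in 4 of those 5 fits, and its adjusted p was 0.061 with the processed signal and with the value table and 0.125 with the offset of 50. KRT32 was 8.21 and 9.43, then 11.01, 10.99 and 10.34. Cell type markers moved along, beside 16.3% of all genes called higher and 27.4% lower. Of 6 germ cell genes 5 were higher in the older testes, with summed signals up to 149710, of 7 Sertoli genes 5 were lower, with sums to 4 months of 2338 to 19511 and 2127 at 2 years, and of 5 endothelial genes 3 were lower, with sums of 237 to 908 and 276 at 2 years; TEK was not well above background to 4 months. Their part in the lower claudins and connexins was not tested. Without the 1-week or without the 2-month testis 8 genes were called in place of 15.

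**Figure D4:**
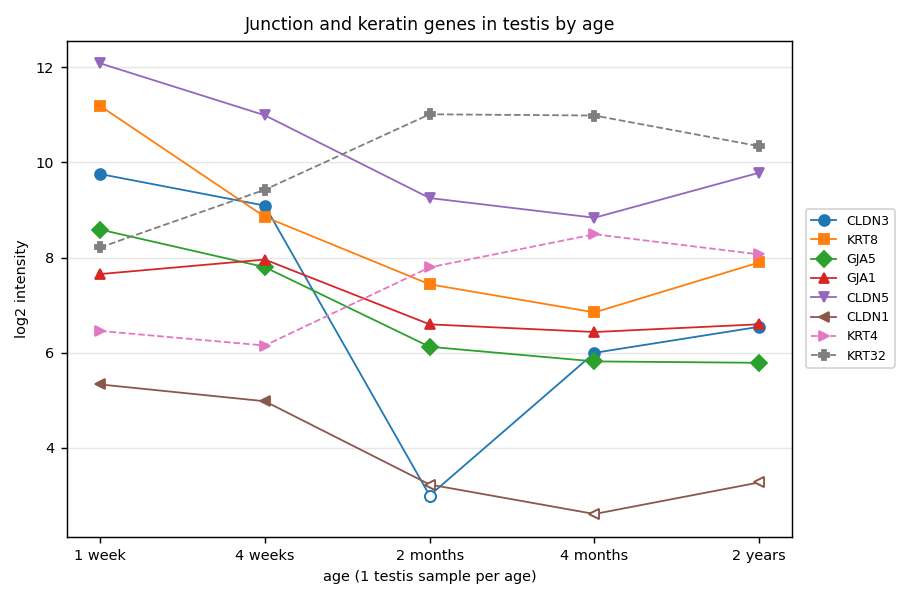
Log2 signal by age of 8 genes in testis, 1 sample an age; solid lines are genes called lower in the older testes, dashed lines KRT4 and KRT32, called higher, and open symbols are not well above background. CLDN3 drops from 9.09 at 4 weeks to 2.99 at 2 months, while KRT32 goes from 9.43 to 11.01.

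The renal pelvis array, 1 array of 1 animal, was set against the 8 repeats of the 2-year kidney. It has no test, since the repeats measure only the array's own spread. A gene was called when it differed 4-fold from the mean of the repeats and lay outside their range, which 3 of the 60 genes did (beside 2.34% of all genes, 0.961% higher and 1.38% lower), and the median difference was −0.04, beside −0.01 for all genes. KRT23 was 6.55 in the pelvis and 3.35 ± 0.24 (SD over 8 repeats), not well above background, in the kidney, at least 8.45-fold higher. CLDN5 was 13.71 against 10.54 ± 0.04, 9.02-fold higher. GJB1 was 8.38 against 11.47 to 11.56 in the repeats, 8.73-fold lower. KRT23 depended on the background correction, its difference being 3.19 and, with the offset of 50, 1.25, and CLDN5 was 2.69 with median scaling.

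The uroplakins were not uniform in the pelvis. UPK3A, listed by accession and of the class marked as cross-hybridizing, was 9.93 against 7.34 ± 0.03, 6.03-fold higher. UPK1B was 4.25 and well above background in the pelvis and in none of the repeats, higher by 1.18. UPK1A was higher by 0.82, and UPK2 lower by 0.23. KRT20, the keratin of urothelial surface cells, and KRT5, that of its basal cells, were not well above background on the pelvis array. KRT19 was 8.66 against 7.52 ± 0.04, GJA1 6.24 against 4.26 ± 0.22 and GJA5 9.71 against 8.24 ± 0.03, all outside the repeats' range but under 4-fold. CLDN23 was lower by 1.33, and CLDN2 by 1.37 and not well above background in the pelvis. The accession entry of CLDN3 was higher by 2.16, and GJA4 by 2.22.

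Marker lists moved on the same array, where 0.961% of all genes were called higher and 1.38% lower. Of 6 urothelial markers, all well above background in the pelvis, 2 were called higher, FOXA1 by 2.45 and KLF5 by 2.17, and the list summed to 2937 in the pelvis, 1423 in the 2-year kidney, where TRIM29 was not well above background, and 1042 to 1653 in the younger kidneys. Of 7 kidney tubule and glomerulus markers 3 were called lower, SLC12A3 by 4.30 and LRP2 by 2.27 among them, and the list summed to 7193 against 9521. The others were not all lower: SLC12A1 was higher by 1.59 and AQP2 by 1.57. Of 6 mesothelial markers 1 was called higher and 0 lower. MSLN was 7.73 in the pelvis and 4.34 in the 2-year kidney. It was also well above background in younger kidneys, at 4.02 in the 4-week female and 5.39 in the 2-month female. The muscle list summed to 20278 against 3730, with MYH2 not well above background, and CKM was higher by 3.30. The endothelial list had 0 of 5 called and summed to 1290 against 765, with TEK not well above background in the pelvis. The desmosome and envelope genes IVL and PPL were higher, by 2.86 and 2.15. Whether the pelvis and the kidney came from the same animal is not given in the labels.

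**Figure D5:**
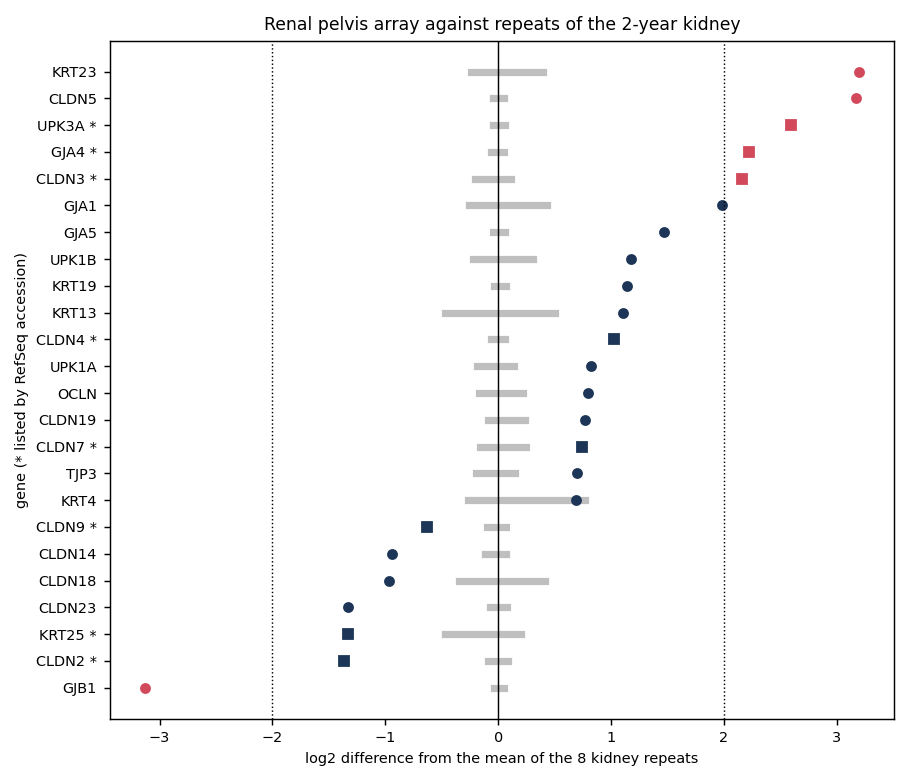
Difference in log2 signal between the renal pelvis array and the mean of the 8 kidney repeats for 24 genes named in the text that were well above background in either and differed by at least 0.6; gray bars span the 8 repeats, dotted lines mark 4-fold and red points are called. KRT23, CLDN5, UPK3A, GJA4 and the accession entry of CLDN3 lie beyond the upper line and GJB1 beyond the lower.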

How the data were processed

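The 80 arrays were one-color 8x60K Agilent custom arrays of 60-base probes hybridized with Cy3-labelled RNA copies. The authors deposited scanner files with raw and processed spot intensity, read by Agilent Feature Extraction 11.5.1.1 per the submitters' processing notes. The authors also deposited a value table, whose values were found here to be log2 and quantile normalized; its centring is unknown beyond equal array medians of 4.57, and it served as an alternative.

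Median spot intensities were corrected with normexp (offset 0), control and outlier spots were left out, arrays were quantile normalized in R 4.3.3 with limma 3.58.1, and log2 values were averaged over spots, then probes, then genes. Of 23736 genes 14 had missing values and were not tested. Groups came from the labels. Comparisons were limma fits with Benjamini-Hochberg adjustment over 23722 genes, checked on simulated data. "At least" folds set the dim group, or those of the compared tissues in which a gene was never well above background, at the higher of its own signal and the lowest signal of a probe well above background on each array. Depth has no equivalent here; the number of arrays limits the precision, and p-values measure the spread between samples that differ in age and sex.

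The families, gene lists and tests were chosen with earlier results of these data known. Genes were named by rule: each member in its highest tissue, called members by size, and members with textbook roles; a few are not reported here. Genes listed by accession were named and neighbours found through RefSeq's Sscrofa11.1 table, 3022 of 10822 accessions being named. Alternatives were other signals, offsets, scalings, filters, blocks and left-out samples. Samples of the same age and sex were checked for pairing: in 5 of 21 tissue pairs all 8 correlations of deviations were over 0.1, kidney and liver (0.185 to 0.358) among them; the other tissue pairs had 3 to 7 of 8, the same sex across ages 0 to 3 of 8, and testis with ovary 0 of 4. No sequence was printed, since none was among the tables used here.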

Additional observations from a re-analysis of the deposited data

Results flagged for a closer look

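Of 48 groups of 4 or 8 samples and 3 sets of the 8 kidney array repeats, 3 groups had a sample set apart from the rest by more than Dixon's limit, about as many as chance gives at 1 in 20. Among the 4 kidneys at 1 and 4 weeks, CLDN1 was 8.08 in the 4-week male and 8.63 in the nearest other. Among the 8 hypothalami to 4 months, CLDN3 was 7.44 in the 4-week female and 4.82 in the nearest other. Among the 8 cortices to 4 months, KRT23 was 4.97 in the 1-week female and 3.12 in the nearest other.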

How the results depend on the processing

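Over 374 recomputed counts of called genes, 299 stayed within 1.5 times the value reported and 75 did not; of 2152 recomputed values of single genes, 1928 kept their direction and side of the threshold, 213 lost the call, 0 reversed and 11, all renal pelvis values, moved by more than the repeats' spread. The genes listed by accession were not recomputed. With a normexp offset of 50, which shrinks dim genes, the number called went from 13 to 8 in kidney, 9 to 4 in spleen, 14 to 8 in marrow, 12 to 6 in hypothalamus and 8 to 4 in cerebellum, from 2 to 1 with age in spleen, 1 to 0 with age in marrow, 0 to 1 for the kidney and liver interaction and 1 to 0 for testis against ovary. A 4-fold limit left 6 in liver, 3 in spleen, 5 in marrow, 2 in cortex, 5 in hypothalamus and 2 in cerebellum, and a 2-fold limit gave 9 in the pelvis. Median scaling moved the median of all genes from −0.01 to −0.21 for kidney against liver, from −0.11 to −0.26 for brain, from −0.05 to 0.09 in liver and from −0.01 to −0.13 in the pelvis, and gave 3 genes with age in kidney, 1 in spleen and 2 for testis against ovary. For age, a common fit of 7 tissues gave 10 in kidney, 1 in liver, 6 in spleen, 5 in marrow, 1 in hypothalamus and 1 in cerebellum, and with slide as a block 3 in kidney, 1 in liver, 3 in marrow and 1 in hypothalamus. For age in liver, the scanner's processed signal, the filter on the detection limit, the variance trend and the authors' value table each gave 1 and adding the 2-year male gave 3. For age in cerebellum the processed signal, the variance trend and the value table gave 1, for age in cortex the variance trend gave 1, and for age in marrow the value table gave 0, as did leaving out the muscle-rich samples.

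With the replicate block, the shared age and sex for tissues and the shared sex or age otherwise, age in spleen went from 2 to 0 and testis against ovary from 1 to 0, and no other count moved by over 1.5 times. Leaving out 1 age and sex at a time from all tissues gave 13 to 14 in kidney, 10 to 12 in liver, 9 to 9 in spleen, 12 to 14 in marrow, 8 to 10 in cortex, 12 to 12 in hypothalamus, 7 to 8 in cerebellum, 11 to 12 for kidney against liver and 10 to 11 for brain. A check of the same kind gave 0 to 1 for the interaction. Leaving out 1 sample at a time gave 0 to 11 with age in kidney, 0 to 1 in liver, 0 to 3 in spleen, 0 to 3 in marrow, 0 to 0 in cortex, 0 to 0 in hypothalamus, 0 to 1 in cerebellum, 0 to 10 for testis against ovary and 8 to 14 for older against younger testis. Other signals and scalings gave 11 to 19 for the last. In the pelvis KRT23 was 1.25 with the offset of 50 and 4.16 with the processed signal, and GJB1 was −2.94 with the offset and −3.41 with median scaling. The cause of these moves was not tested. Signal near background limits OCLN, TJP3 and most keratins.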

Other observations

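Levels of a few further members follow. GJD2, connexin 36 of neuronal electrical synapses, had its highest mean in marrow, 5.25 ± 0.25 (SD, n = 8), followed by spleen at 4.93, and was called in no tissue. GJD4 was 5.48 in liver and 5.41 in marrow. CLDN12 was 6.92 ± 0.34 in liver and 6.71 ± 0.19 in cerebellum, with its lowest mean, 5.36, in marrow, and CLDN25 8.35 in liver and 7.74 in cortex. UPK1A was 7.06 ± 0.54 in marrow and 6.80 in cerebellum, and UPK2 5.62 in liver and 5.33 in marrow, so neither was highest in kidney.

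The 2-year marrow stood apart from the younger ones in endothelial and fibroblast genes as well as in connexins: GJA5 was 11.34, GJA1 9.90 and CLDN5 12.77 there, the endothelial list summed to 2398 against 525 to 760 and the erythroid list to 5750 against 61569 to 69357 up to 4 months. Age and slide cannot be told apart for this sample.

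KRT8 also varied between cerebella, from 7.23 in the 1-week male and 5.94 in the 2-month male to values not well above background in the 1-week female and both 4-week samples.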
